A study of Mus musculus with 4 samples.

Results

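In 4 mouse oral cancer cell lines, 10 genes that the ERK pathway switches on and that mostly restrain it were followed. They are the phosphatase genes Dusp4, Dusp5 and Dusp6, the Sprouty and Spred genes Spry2, Spry4, Spred1 and Spred2, the ETS factor genes Etv4 and Etv5, and Phlda1. They were chosen by name as known ERK outputs, with earlier results of these data already known. Their rows were found through their Ensembl identifiers in GENCODE M21. All 10 have a row in the deposited table, out of 34685 gene identifiers, and all 10 reached 1 FPKM in at least 1 line, as did 14155 genes in all. FPKM counts fragments per kilobase of transcript, scaled to the mapped total of the library. AOC3 and AOC11 came from primary oral tumors of 2 male C57BL/6 mice whose buccal mucosa had been exposed to the carcinogen DMBA. AOC3-LN and AOC11-LN came from metastases in lymph nodes, and their names tie each to the primary tumor of its mouse. Each line was passed once through a flank tumor in another C57BL/6 mouse and depleted of fibroblasts, then grown in DMEM/F12 with serum, and each was sequenced as 1 library. The carcinogen exposure was longer for AOC11 than for AOC3. Of the pathway genes followed below, the study listed mutations of Epha2 in all 4 lines. It listed mutations of Hras, Nf1, Erbb2 and Fgfr2 in the AOC11 lines only, and of Fgfr1 in the AOC3 lines only. The part of these mutations in the results was not tested. Normal oral epithelium was not analysed here.

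Growth factor receptors and Ras activate the kinases Raf, MEK and ERK in turn, and ERK then turns on genes whose products damp the same cascade. Dual specificity phosphatases remove the activating phosphates from ERK, Sprouty proteins act upstream near the receptors and Raf, and Spred proteins bring neurofibromin to Ras at the membrane. Etv4 and Etv5 are transcription factors that carry growth factor signals, chiefly of FGF and EGF receptors, to the genome. Transcript levels of such genes are often read as a sign of ERK output in carcinomas, including squamous carcinomas, where the EGF receptor is a common driver.

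The start regions of 2 phosphatase genes are printed here because Dusp5 differed most between the lines and Dusp6 had the highest FPKM of the 10 genes in every line but AOC11. Both are from RefSeq on GRCm38.p6, are written 5′ to 3′ on the gene's strand, and end before the first annotated transcript base. Capitals mark matches to the serum response CArG box, the site read by serum response factor.
Dusp5, chr19:53528895-53529108, plus strand: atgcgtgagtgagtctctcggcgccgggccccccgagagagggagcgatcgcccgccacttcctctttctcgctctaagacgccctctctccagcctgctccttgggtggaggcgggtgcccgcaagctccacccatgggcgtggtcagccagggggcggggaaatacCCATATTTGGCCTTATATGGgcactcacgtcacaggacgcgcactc
Dusp6, chr10:99262981-99263230, plus strand: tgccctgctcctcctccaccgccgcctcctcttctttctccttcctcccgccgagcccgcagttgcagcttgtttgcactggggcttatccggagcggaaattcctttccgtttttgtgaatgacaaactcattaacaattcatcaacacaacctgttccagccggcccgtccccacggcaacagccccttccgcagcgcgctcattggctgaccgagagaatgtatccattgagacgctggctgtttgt
The Dusp5 stretch holds 2 adjacent CArG boxes, which start 82 and 72 bases before the RefSeq transcript start. Windows of 250 bases before a transcript start numbered 32851 in the table, of which 1.47% held such a box and 6 held 2 or more. The search of both strands also covered the ETS site CCGGAAG, the AP-1 site TGANTCA and the cyclic AMP response element TGACGTCA, present in 6.91%, 6.75% and 1.55% of windows respectively. Promoter windows were given for Dusp5, Dusp6, Spry2, Spred1, Spred2 and Etv5. None of these held the ETS, AP-1 or full cyclic AMP response letters within the 250 bases, and Dusp5 was the only one with a CArG box. The shorter cyclic AMP string TGACG was also searched and was present in 17.8% of windows. Dusp5 and Spred2 each held 1 match to it, on the other strand. A match is a string of letters and not a measured binding site. An antisense gene of Dusp5, AC137853.2, was listed at 0.0694 to 0.168 FPKM in the 4 lines.

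The depth of the libraries, estimated from the steps between low values, was 28220000 to 33730000 fragments. All 8 genes of the epithelial marker list reached 1 FPKM in at least 1 line, Trp63 only in the AOC3 lines. Cdh1, the gene of E-cadherin, lay between 144 and 183 FPKM. Krt5 was at 499 and 275 FPKM in the AOC3 lines and at 4.99 and 17.0 in the AOC11 lines, and Trp63 was at 1.69, 2.10, 0.0848 and 0.841 FPKM in AOC3, AOC3-LN, AOC11 and AOC11-LN. Fibroblast markers summed to between 0.246 and 1.17 FPKM over 8 genes and endothelial markers to between 0.251 and 0.392 over 4 genes, with 0 of either list at 1 FPKM. Leukocyte markers summed to between 9.30 and 27.0 FPKM over 6 genes, of which Cd68 and Csf1r reached 1 FPKM and Adgre1 and Cd3e were listed at 0 in all lines. The part of these marker differences in the results that follow was not tested. In RNA from whole cultures, fewer expressing cells and less RNA per cell cannot be told apart.

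**Figure D1:**
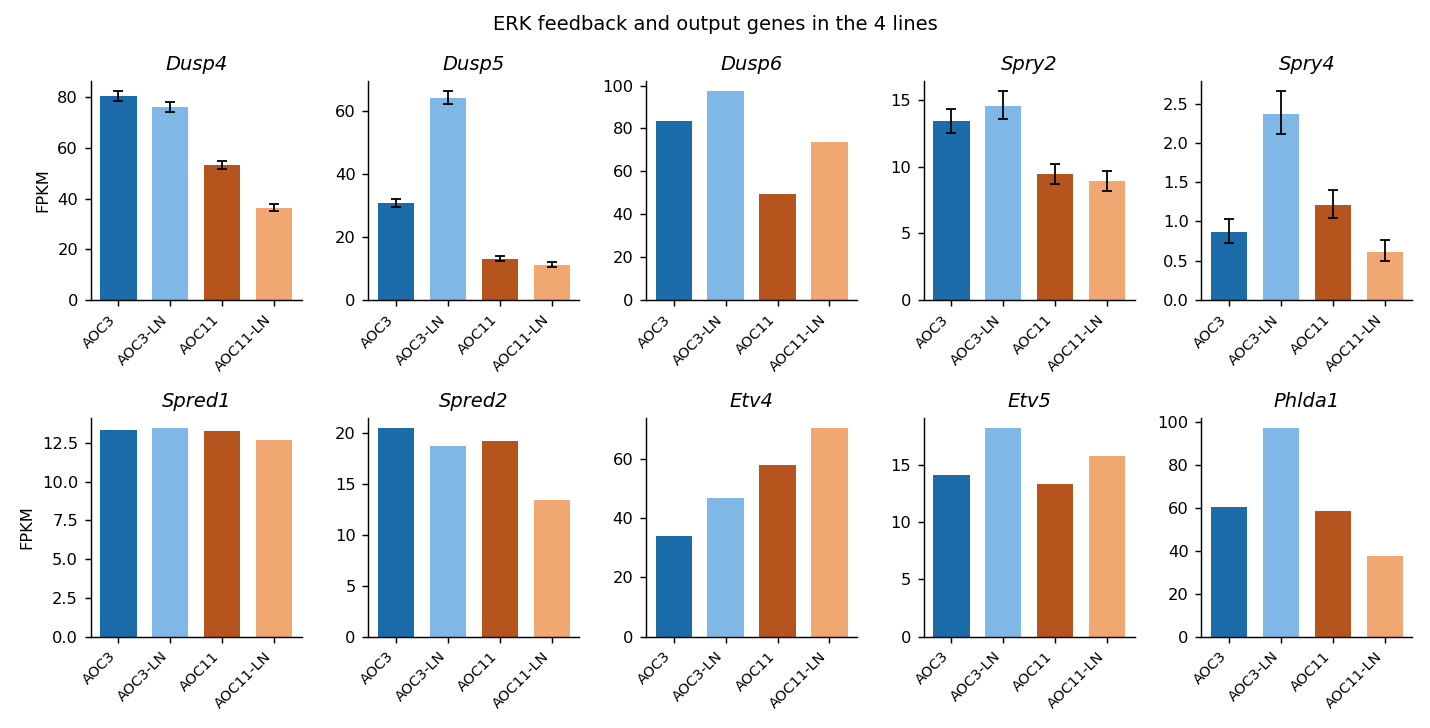
FPKM of each of the 10 genes (vertical axis, from 0, a separate scale for each gene) in the 4 lines, 1 library per bar. Black bars on Dusp4, Dusp5, Spry2 and Spry4, which have 1 annotated transcript, are 95% Poisson intervals for counting error only. AOC3-LN is the tallest bar for 7 genes, Etv4 is tallest in AOC11-LN, and Spred1 is nearly level.

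The 3 phosphatase genes were expressed in every line and were higher in both AOC3 lines than in both AOC11 lines. Dusp4 (ENSMUSG00000031530.6, chromosome 8, 34807297 to 34819894, plus strand, mm10) encodes a nuclear phosphatase of ERK, JNK and p38. It was at 80.4 FPKM in AOC3 and 76.1 in AOC3-LN, against 53.1 in AOC11 and 36.4 in AOC11-LN. Its order ran from AOC3 down to AOC11-LN, and the 95% Poisson intervals of all 4 values, which cover counting error only, did not meet. The closest were 78.5 to 82.3 in AOC3 and 74.1 to 78.2 in AOC3-LN.

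Dusp5 (ENSMUSG00000034765.6, chromosome 19, 53529109 to 53542431, plus strand) encodes a nuclear phosphatase that acts on ERK. It was at 30.7 FPKM in AOC3 and 64.2 in AOC3-LN, against 13.0 in AOC11 and 11.1 in AOC11-LN. The highest line was 5.77 times the lowest, the widest spread among the 10 genes. AOC3-LN stood above AOC3, and AOC3 above both AOC11 lines. The intervals of the AOC11 lines, 12.2 to 13.8 and 10.4 to 11.9, lay close together without meeting. Whether the paired CArG boxes printed above bear on this spread was not tested.

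Dusp6 (ENSMUSG00000019960.8, chromosome 10, 99263231 to 99267489, plus strand) encodes a cytoplasmic phosphatase that is selective for ERK. It was at 83.3 FPKM in AOC3 and 97.3 in AOC3-LN, against 49.2 in AOC11 and 73.7 in AOC11-LN, which placed it between the 83.8th and 92.5th percentile of genes past the filter. Its spread was 1.98 times, and it was higher in the lymph node line in both mice. Dusp4, Dusp5 and Dusp6 summed to 194 FPKM in AOC3 and 238 in AOC3-LN, against 115 in AOC11 and 121 in AOC11-LN. Because FPKM is per length, their shares can be compared. Dusp6 gave 42.8%, 41.0%, 42.7% and 60.8% of that sum in the same order of lines, and Dusp5 gave 15.8%, 27.0%, 11.3% and 9.17%. Within the summed FPKM of these 3 genes, the share of Dusp5 was thus largest in AOC3-LN and that of Dusp6 in AOC11-LN. Other phosphatase genes were not part of that sum.

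The Sprouty genes differed in level and in spread, whereas the Spred genes were among the most even of the set. Spry2 (ENSMUSG00000022114.5, chromosome 14, 105891947 to 105896819, minus strand) was at 13.4 FPKM in AOC3 and 14.6 in AOC3-LN, against 9.45 in AOC11 and 8.92 in AOC11-LN. Both AOC3 lines were above both AOC11 lines. Within each mouse the counting intervals met, at 12.5 to 14.3 and 13.6 to 15.7 in the AOC3 lines and at 8.72 to 10.2 and 8.20 to 9.70 in the AOC11 lines.

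Spry4 (ENSMUSG00000024427.7, chromosome 18, 38586247 to 38601415, minus strand) was the least expressed of the 10 genes. It was at 0.865 FPKM in AOC3 and 2.37 in AOC3-LN, against 1.21 in AOC11 and 0.616 in AOC11-LN, from an estimated 134, 308, 187 and 92 fragments. The counting intervals were 0.727 to 1.03, 2.12 to 2.65, 1.05 to 1.40 and 0.498 to 0.758 FPKM. AOC3-LN was thus apart from the other lines, and the 2 groups of lines overlapped. Spry2 exceeded Spry4 by 15.5 times in AOC3 and 6.17 times in AOC3-LN, against 7.79 times in AOC11 and 14.5 times in AOC11-LN.

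Spred1 (ENSMUSG00000027351.14, chromosome 2, 117121374 to 117182279, plus strand) was at 13.3 FPKM in AOC3 and 13.5 in AOC3-LN, against 13.3 in AOC11 and 12.7 in AOC11-LN. Its highest line was 1.06 times its lowest, the narrowest spread of the set. Spred2 (ENSMUSG00000045671.17, chromosome 11, 19924375 to 20024026, plus strand) was at 20.5, 18.7, 19.2 and 13.4 FPKM in the same order. AOC11-LN was the low line for Spred2, and the other 3 lines lay within 18.7 to 20.5 FPKM.

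Etv4 was the 1 gene of the set with the opposite order of mice. Etv4 (ENSMUSG00000017724.14, chromosome 11, 101769742 to 101785371, minus strand) was at 33.9 FPKM in AOC3 and 46.6 in AOC3-LN, against 58.0 in AOC11 and 70.2 in AOC11-LN. Both AOC11 lines were above both AOC3 lines, and each lymph node line was above its primary line. Its close relative Etv5 (ENSMUSG00000013089.15, chromosome 16, 22381309 to 22439719, minus strand) was at 14.2, 18.2, 13.3 and 15.8 FPKM, and its groups of lines overlapped. The ratio of Etv4 to Etv5 was 2.39 in AOC3 and 2.55 in AOC3-LN, against 4.34 in AOC11 and 4.44 in AOC11-LN, so it differed little within a mouse and more between the mice.

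Phlda1 (ENSMUSG00000020205.8, chromosome 10, 111506286 to 111508645, plus strand) encodes a protein with a pleckstrin homology-like domain and is an early growth factor response gene. It was at 60.2 FPKM in AOC3 and 97.0 in AOC3-LN, against 58.4 in AOC11 and 37.5 in AOC11-LN. AOC3-LN was the high line and AOC11-LN the low line, with the primary lines close to each other between them. An annotated antisense gene, Gm28592, overlaps an exon of Phlda1 on the other strand and was listed at 66.3, 100.2, 60.0 and 39.3 FPKM, between 1.03 and 1.10 times Phlda1 in each line. The library kit keeps strand, but TopHat2 and Cufflinks were run with default settings, which do not use it, so reads of these 2 genes cannot be told apart.

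To compare the tumors of the 2 mice, FPKM values were log2-transformed after adding 1 and quantile-normalized, and the mean of AOC3 and AOC3-LN was set against the mean of AOC11 and AOC11-LN. The threshold was a log2 difference of more than 1 in either direction. Dusp5 alone passed it, with a log2 difference of 1.86. Thus 1 of 10 genes passed, beside 11.1% of all 14155 genes, a share close to that background. In direction, 9 of the 10 genes were higher in the AOC3 lines, beside 50.8% of all genes. The median log2 difference of the 10 genes was 0.54, beside 0.01 over all genes.

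In decreasing order the log2 differences were 0.87 for Dusp4, 0.75 for Phlda1, 0.64 for Dusp6, 0.63 for Spry2, 0.44 for Spry4, 0.36 for Spred2, 0.20 for Etv5 and 0.12 for Spred1, and Etv4 was at -0.63. In FPKM, both AOC3 lines exceeded both AOC11 lines for Dusp4, Dusp5, Dusp6, Spry2, Spred1 and Phlda1, which is 6 of 10 genes beside 22.5% of all genes. Of these, Spred1 was nearly level, with 13.32 FPKM in AOC3 against 13.30 in AOC11, and Phlda1 was at 60.2 against 58.4. Both AOC11 lines were higher for 1 of 10 genes, Etv4, beside 30.5% of all genes. The difference for Spry4 rested on AOC3-LN, since without that line it was -0.06. The difference for Phlda1 was 0.43 without AOC3-LN and 1.08 without AOC3. That of Etv5 was 0.0031 without AOC3-LN, that of Spred2 was 0.11 without AOC11-LN, and that of Dusp6 was 0.35 without AOC11.

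limma was fitted to all 14155 genes with Benjamini-Hochberg adjustment, taking the primary and lymph node line as replicates of their mouse. It called 0 of the 10 genes at an adjusted p under 0.05, beside 0.205% of all genes, and 5 of the 10 at an unadjusted p under 0.05, beside 18.7% of all genes. The 5 were Dusp4, Dusp5, Dusp6, Spry2 and Etv4. That unadjusted count depended on single lines, with 1 gene without AOC3, 2 without AOC3-LN, 3 without AOC11 and 2 without AOC11-LN. For Dusp5 the standard error was 0.37 and the adjusted p was 0.124 in limma, the smallest of the set, and the largest, for Spred1, was 0.747. As each group is 1 mouse, the fit speaks of these lines alone.

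**Figure D2:**
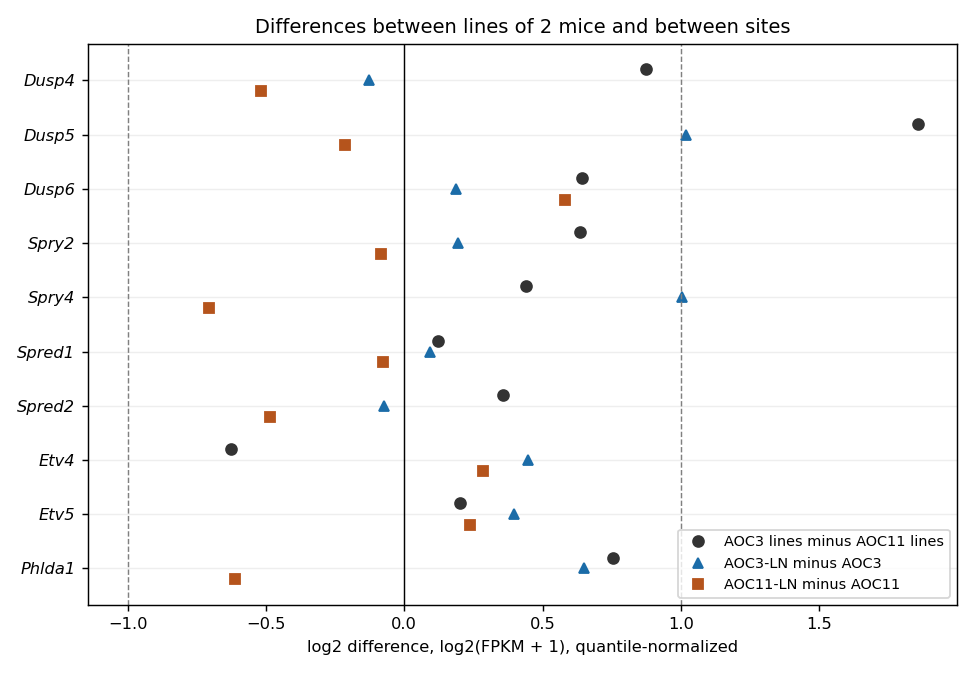
Log2 differences (horizontal axis, quantile-normalized log2 of FPKM + 1) of the 10 genes between the lines of the 2 mice (circles) and, within each mouse, between its lymph node line and its primary line (triangles and squares). Dashed lines mark -1 and 1. The circle of Dusp5 at 1.86 is far to the right, that of Etv4 at -0.63 is the only one left of 0, and the triangles and squares of Dusp5, Spry4 and Phlda1 lie on opposite sides of 0.

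To compare metastasis with primary tumor, each lymph node line was set against the primary line of the same mouse. Each of these differences is between single libraries and has no replicate check. In AOC3-LN, Dusp5 and Spry4 passed the threshold upward, with log2 differences of 1.02 and 1.003. This is 2 of 10 genes, beside 2.11% of all genes above 1 and 5.53% past the threshold either way. Below -1 there were 0 of 10, beside 3.42% of all genes. The value of Spry4 was 0.85 without quantile normalization and 1.59 with a pseudocount of 0.1, so its side of the threshold depended on the scale. Phlda1 was higher by 0.65, Etv4 by 0.45 and Etv5 by 0.40 in AOC3-LN, and Spry2, Dusp6 and Spred1 by 0.20, 0.19 and 0.09. Dusp4 and Spred2 had differences of -0.13 and -0.07, and that of Dusp4 was 0.02 after scaling by the median. Above 0 there were 8 of 10 genes, beside 53% of all genes.

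In AOC11-LN 0 of the 10 genes passed the threshold, beside 8.1% of all genes past it either way, 4.96% upward and 3.14% downward. All of them but Dusp6, Etv4 and Etv5 had values below 0 against the AOC11 line. The lowest were Spry4 at -0.70, Phlda1 at -0.61, Dusp4 at -0.52 and Spred2 at -0.49, and Dusp5, Spry2 and Spred1 were at -0.22, -0.09 and -0.08. Above 0 were 3 genes, Dusp6 at 0.58, Etv4 at 0.28 and Etv5 at 0.24, beside 47.7% of all genes. The median over the 10 genes was -0.15 in AOC11-LN and 0.30 in AOC3-LN, beside -0.02 and 0.02 over all genes.

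The 2 ETS genes and Dusp6 were thus higher in the lymph node line of both mice. With Dusp4 and Spred2, which were lower in both, 5 of 10 genes had 1 direction in both mice, beside 46.2% of all genes. Dusp5, Spry2, Spry4, Spred1 and Phlda1 were higher in AOC3-LN and lower in AOC11-LN than in the primary line, which is 5 of 10 genes beside 28.6% of all genes. Among these, Spry2 shifted by only 0.20 and -0.09, and Spred1 by 0.09 and -0.08. Without quantile normalization the shift of Spred1 in AOC3-LN was 0.01. The reverse pair of directions held for 0 of 10 genes, beside 23.3% of all genes. With the mouse as a term, limma called 0 of the 10 genes between lymph node and primary lines at an adjusted p under 0.05 and 0 at an unadjusted p under 0.05, beside 0.0141% and 2.86% of all genes.

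**Figure D3:**
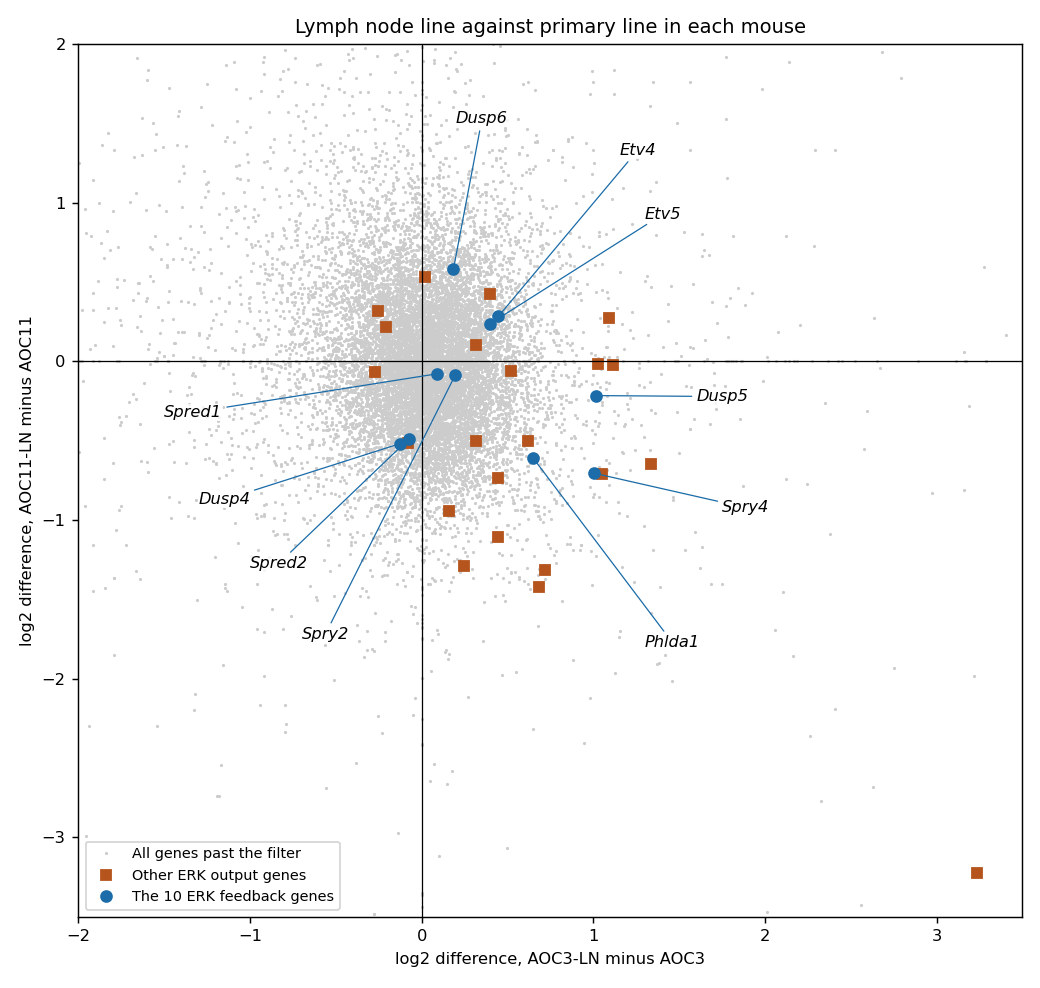
Log2 difference between lymph node and primary line in the AOC3 pair (horizontal axis) and the AOC11 pair (vertical axis) for all genes past the filter (grey, 311 of them outside the axes), the 10 ERK feedback genes (blue, named) and 22 other ERK output genes (orange). Dusp5, Spry4 and Phlda1 lie to the right and below 0, while Dusp6, Etv4 and Etv5 lie to the right and above 0.

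Read by the order of lines on the normalized scale, AOC3-LN was the highest line for 7 of 10 genes, beside 27.9% of all genes, and AOC11-LN was the lowest for 7 of 10, beside 28.8% of all genes. Both held for Dusp5, Spry2, Spry4, Spred1 and Phlda1, beside 13.2% of all genes. AOC3 was highest for Dusp4 and Spred2, and AOC11-LN for Etv4, beside 18% and 26.8% of all genes. AOC11 was highest for 0 of 10, beside 27.2%. For Spred1 this order spans 0.21 log2 units in all. For Spry2 the counting intervals of the primary and lymph node line met in each mouse, so their order is not settled. Reads of Phlda1 cannot be told apart from those of Gm28592. The median range over the 4 lines was 1.01 log2 units for the 10 genes and 0.69 over all genes.

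The other genes of the pathway were grouped into lists written by hand. Of 24 other ERK output genes, among them immediate early transcription factors and EGF family ligands, 22 passed the filter. Between the mice, 6 were above 1 and 0 below -1, beside 5.11% and 6% of all genes, and their median was 0.49. The largest difference was that of Hbegf, an EGF receptor ligand, at 1.86, with 94.8 FPKM in AOC3 and 156 in AOC3-LN, against 56.5 in AOC11 and 20.4 in AOC11-LN. Fosl1, an AP-1 subunit, followed at 1.70, with 39.0, 84.1, 16.0 and 19.3 FPKM, and then Areg, another EGF receptor ligand, at 1.40, with 44.6, 93.4, 32.1 and 19.2 FPKM. AOC3-LN was the highest line for 16 of the 22 genes, beside 27.9% of all genes, and AOC11-LN the lowest for 14, beside 28.8%.

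In AOC3-LN, 6 of the 22 output genes were above 1 against AOC3 and 0 below -1, beside 2.11% and 3.42% of all genes, with a median of 0.45. In AOC11-LN, 0 were above 1 and 5 below -1 against AOC11, beside 4.96% and 3.14% of all genes, with a median of -0.50. Those 5 were Ptgs2 at -3.22, Hbegf at -1.42, Ereg at -1.32, Lif at -1.29 and Ier3 at -1.11. Ptgs2, the gene of cyclooxygenase-2, was at 4.91 FPKM in AOC3 and 53.2 in AOC3-LN, against 52.0 in AOC11 and 4.95 in AOC11-LN, so its lymph node shifts were of nearly the same size and of opposite direction.

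Of the 10 other MAP kinase phosphatase genes, 1 was above 1 and 1 below -1 between the mice, beside 5.11% and 6% of all genes, and their median was 0.51. Dusp1, an immediate early phosphatase gene that acts mainly on p38 and JNK, differed by 2.10, with 8.13 FPKM in AOC3 and 35.8 in AOC3-LN, against 6.75 in AOC11 and 1.70 in AOC11-LN. Its order of lines was that of Dusp5. Dusp3 was at -1.01 and Dusp9, a cytoplasmic ERK phosphatase gene, at 0.93. In AOC3-LN, Dusp1 and Dusp2 were above 1 and Dusp22 below -1 against AOC3, beside 2.11% and 3.42% of all genes. In AOC11-LN, Dusp22 was above 1 and Dusp1, Dusp8 and Dusp14 below -1 against AOC11, beside 4.96% and 3.14% of all genes.

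Of 17 other feedback inhibitors, 16 have a row and passed the filter. Among these, 0 passed the threshold between the mice in either direction, beside 11.1% of all genes, and their median was 0.05. Errfi1, an inhibitor of the EGF receptor that ERK induces, had the largest difference at 0.94, with 78.4, 131.5, 57.4 and 52.4 FPKM in AOC3, AOC3-LN, AOC11 and AOC11-LN. Of 13 other ETS factor genes, 11 passed the filter and 0 passed the threshold, beside the same 11.1% of all genes, with a median of 0.03. The largest in size among them was Ets2, at -0.44, on the side of Etv4, and Elk1 followed at 0.41 on the other side. In direction, 7 of the 11 were higher in the AOC3 lines and 4 lower.

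Of 25 cascade genes, from the adaptors between receptors and Ras to the kinases that ERK activates, 24 passed the filter. Between the mice 0 were above 1 and 1 below -1, beside 5.11% and 6% of all genes, with a median of 0.04. The gene below -1 was Gab1, a docking protein of receptor kinases, at -1.34. Of 11 receptor genes, 8 passed the filter, 1 was above 1 and 1 below -1, beside the same shares, and the median was -0.16. Fgfr1 was at -2.46, with 20.3 FPKM in AOC3 and 5.71 in AOC3-LN, against 65.7 in AOC11 and 70.5 in AOC11-LN, and Epha2, which is also 1 of the 6 ERK output genes above 1, was at 1.23. limma called 0 genes of any of these 6 lists between the mice at an adjusted p under 0.05, beside 0.205% of all genes.

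**Figure D4:**
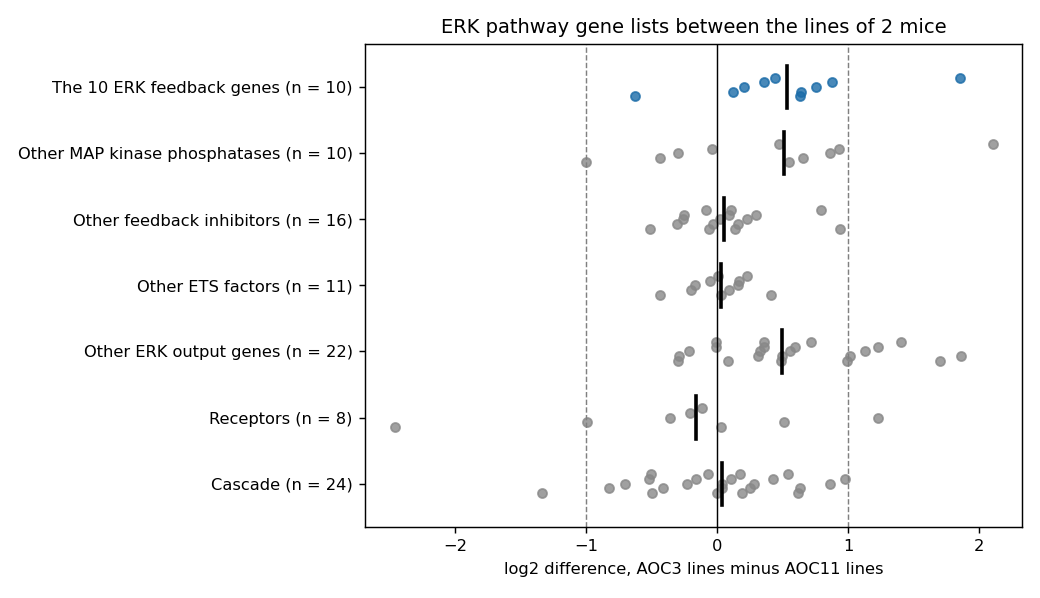
AOC3 lines minus AOC11 lines, as a log2 difference (horizontal axis), of each gene past the filter in the 10 ERK feedback genes and in 6 lists of other pathway genes, with black bars at the medians and dashed lines at -1 and 1. The medians of the 10 genes (0.54), other MAP kinase phosphatases (0.51) and other ERK output genes (0.49) lie to the right of those of the cascade (0.04), the ETS factors (0.03), the feedback inhibitors (0.05) and the receptors (-0.16).

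For the 3 genes with the widest range, the protein-coding genes with the closest profile were found by Euclidean distance between centred log2 values over the 4 lines. For Dusp5 these were Ccdc114 (distance 0.13 log2 units), Procr (0.26) and Ramp3 (0.26). Procr, the endothelial protein C receptor gene, was at 188, 437, 76.6 and 68.9 FPKM in AOC3, AOC3-LN, AOC11 and AOC11-LN. In the same order, Ccdc114 was at 2.82, 5.63, 0.341 and 0.458 FPKM and Ramp3 at 1.55, 4.91, 0.225 and 0.0287 FPKM. At such low values adding 1 before the log understates fold changes. These genes are thus close to Dusp5 on that scale and not in fold of FPKM. For Phlda1 they were Fam219a (0.12), Fosb (0.12) and Myo5b (0.13). Fosb, an AP-1 subunit gene, was at 3.91, 5.35, 3.11 and 1.95 FPKM. For Spry4 they were Mitf (0.09), Dgat2 (0.16) and Eps8 (0.17). Eps8, a substrate of the EGF receptor kinase, was at 40.8, 76.5, 52.9 and 28.7 FPKM. Each profile has 4 values, and between 1873 and 5850 candidate genes were compared.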

How the data were processed

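RNA from 4 cultured lines was sequenced with 1 library each. The authors trimmed reads with Trim Galore, mapped them to mm10 with TopHat2 and estimated FPKM with Cufflinks on GENCODE M21, and they deposited these FPKM values without log transformation or quantile normalization. Tool versions are not given in the sources used here. Of 34721 entries, 34685 identifiers are distinct, and for the 29 with more than 1 entry the entry with the highest mean was kept. Values were transformed as log2(FPKM + 1) and quantile-normalized over all entries, which understates fold changes of low genes. Genes that reached 1 FPKM in any line were tested with limma 3.58.1 in R 4.3.3 (lmFit, eBayes with trend). The fit was checked on simulated data with larger differences and a smaller spread than those of the 10 genes. That check does not show how often differences of the size seen here would be called. Depth was estimated from 9528 genes with 1 transcript, of whose low values 70.7% to 73.2% fell within 0.1 of a whole fragment. The genes and lists were chosen with earlier results of these data known. Besides the 10 genes, the text names up to 3 genes of each list by size of difference between the mice, genes of counts of 5 or fewer, and the 3 closest profiles for 3 genes.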

Additional observations from a re-analysis of the deposited data

Results flagged for a closer look

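Dusp5 and Spry4 had shifts of opposite sign in the lymph node lines of the 2 mice, with at least 1 of them past the threshold. The log2 difference of Dusp5 was 1.02 in AOC3-LN against AOC3 and -0.22 in AOC11-LN against AOC11. That of Spry4 was 1.003 in AOC3-LN and -0.70 in AOC11-LN. Each shift is between single libraries, so the difference between the mice was not tested.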

How the results depend on the processing

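The count of genes past the threshold between the AOC3 and AOC11 lines was 1 with a pseudocount of 0.1, with either other scaling and with either other filter, and 6 at a threshold of 1.5-fold. Leaving out 1 line gave between 1 and 3 genes: without AOC3 it was 2 (Dusp5 and Phlda1), and without AOC11 it was 3 (Dusp4, Dusp5 and Phlda1). In AOC3-LN the count of 2 became 1 when values were not quantile-normalized, 1 when scaled by the median and 1 among genes at 5 FPKM or more, where Spry4 is not tested. In AOC11-LN the count of 0 became 1 (Spry4, at -1.38) with a pseudocount of 0.1 and 2 (Spry4 and Phlda1) at 1.5-fold. Of 187 log2 differences of single genes under other settings, 2 changed sign, those of Dusp4 in AOC3-LN after scaling by the median and of Spry4 between the mice without AOC3-LN. The counts by order of lines were added after seeing the data, as was their reading without quantile normalization and with median scaling. AOC3-LN was highest for 7 and 8 genes, and AOC11-LN lowest for 7 and 7. limma called 0 of the 10 genes in every setting run, also with site as a replicate block (0 genes, smallest adjusted p 0.136 among the 10). Over all genes limma called 29 between the mice, 50 at 5 FPKM or more, 31 with the block, and 0 without a filter or without any 1 line. The block changed no adjusted call of the 10 genes, and the count at an unadjusted p under 0.05 was 4 with it, 4 when values were not quantile-normalized and 3 without a filter, against 5. Leaving out a line from the comparison of sites with the mouse as a term leaves no residual degrees of freedom and was not run. Counting error could be estimated for 4 of the 10 genes, and with 1 library per line the spread between cultures is unknown.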
